A study of Mus musculus with 42 samples.

Results

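SOX2 occupancy was compared between wild-type (WT) cells and cells mutant for T/Bra (T/BraKO) with ChIP–seq, in which DNA bound by a protein is enriched with an antibody and sequenced. The comparison used the peak lists of 6 of the 42 samples, chosen by their labels: 3 SOX2 libraries from WT cells and 3 from T/BraKO cells. All 6 were labelled as epiblast-like cells, which the study calls caudal epiblast-like when they have received CHIR, made in culture from mouse embryonic stem cells of strain HM1 (129) that were differentiated in FGF and LGK974, a blocker of WNT secretion, received CHIR99021 (CHIR), an activator of WNT signalling, for the last day, and were collected at 72 h. The genotypes were WT and T/Bra-/-, so that the only labelled difference was the loss of T/Bra. The replicates were labelled as biological replicates. Their titles carry the same experiment label, while the methods describe separate experiments. Each genotype was a separate cell line, so line and genotype cannot be told apart. Whether the mutant line is 1 clone, and the extent of its mutation, were not given in the sources used here. SOX2 libraries of CdxKO cells (Cdx1/2/4-/-) with CHIR and of WT cells without CHIR (noCHIR), and the β-catenin and LEF1 libraries of the WT and T/BraKO cells, served as further readouts. Peaks called in 3 of 3 libraries of one genotype and in 0 of 3 of the other were then described by gene, place and sequence.

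SOX2 is an HMG-box transcription factor that maintains pluripotency together with POU factors and later marks neural progenitors. T/Bra, encoded by T, is the T-box factor of the primitive streak and its mesodermal descendants, and T is induced by WNT signalling. WNT signalling acts through β-catenin, which has no DNA-binding domain of its own and is brought to chromatin by TCF/LEF proteins such as LEF1. In caudal epiblast cells, SOX2 and T/Bra are present together, and the cells can later become neural or paraxial mesodermal.

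Several of the SOX2 regions with the largest differences between the genotypes lay in sequences of which the genome holds near-copies. The windows shown reach 100 bp to each side of the summit, on the + strand of GRCm38 as in the RefSeq assembly, and are named by the nearest protein-coding gene. For these windows, called only in 1 genotype means a peak among the 20000 best of all 3 of its libraries and of none of the other genotype. A weaker peak may still be listed there. At Ces2g, all 3 T/BraKO lists held a weaker peak at lower rank. Capitals mark a match, on either strand, to 1 of 5 motifs. The SOX motif was searched as CCATTGT or as CCTTTGT. The T-box motif was AGGTGTGA. The CDX motif took the form CCATAAA or the form CAATAAA. Its other accepted forms were TCATAAA and also TAATAAA. The TCF/LEF motif was CTTTGAA or else CTTTGAT, and the POU motif was ATGCAAAT. Windows described as lower, weaker, higher or stronger in a genotype were picked by the smallest p of the limma test given below. None of those shown passed its adjustment (adjusted p = 0.103 to 0.46 by limma). The first pair shows sequence shared by regions on different chromosomes. The Olfr893 window (chr9:38202321-38202521, between genes) was called only in WT. The Dnajb6 window (chr5:29800122-29800322, intron), which had lower SOX2 fold enrichment in T/BraKO, aligned with it over 150 columns with 116 identical bases, or 77.3%, on the same strand.
Olfr893: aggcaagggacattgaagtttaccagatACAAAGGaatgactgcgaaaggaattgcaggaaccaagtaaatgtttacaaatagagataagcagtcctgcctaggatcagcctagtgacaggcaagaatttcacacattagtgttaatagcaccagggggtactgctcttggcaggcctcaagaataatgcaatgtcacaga
Dnajb6: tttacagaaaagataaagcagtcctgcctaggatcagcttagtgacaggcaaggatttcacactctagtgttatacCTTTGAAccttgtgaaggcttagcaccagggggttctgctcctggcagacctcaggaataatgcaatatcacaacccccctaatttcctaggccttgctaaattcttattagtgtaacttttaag

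A second pair joined a region called only in WT, upstream of Gpr37l1 (chr1:135194517-135194717), to a region with lower fold enrichment in T/BraKO, downstream of Gtf2ird1 (chr5:134337027-134337227). These windows shared 103 identical bases over 119 columns, on opposite strands. The sharing was not limited to regions stronger in WT. The Ces2g window (chr8:104982227-104982427), called only in WT, shared 128 identical bases over 151 columns with the Fhit window (chr14:9242150-9242350), which had higher fold enrichment in T/BraKO. The Il17f window (chr1:20774150-20774350), called only in T/BraKO, shared 79 identical bases over 104 columns with the Lrfn5 window (chr12:63002584-63002784), which was stronger in WT.
Gpr37l1: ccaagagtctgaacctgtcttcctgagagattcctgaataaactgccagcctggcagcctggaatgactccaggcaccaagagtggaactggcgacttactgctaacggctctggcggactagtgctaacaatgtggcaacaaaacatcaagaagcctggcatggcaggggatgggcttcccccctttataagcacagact
Gtf2ird1: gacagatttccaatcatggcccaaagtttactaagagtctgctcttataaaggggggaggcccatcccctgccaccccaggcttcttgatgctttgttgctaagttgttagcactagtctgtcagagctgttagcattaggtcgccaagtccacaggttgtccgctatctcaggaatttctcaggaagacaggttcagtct
Ces2g: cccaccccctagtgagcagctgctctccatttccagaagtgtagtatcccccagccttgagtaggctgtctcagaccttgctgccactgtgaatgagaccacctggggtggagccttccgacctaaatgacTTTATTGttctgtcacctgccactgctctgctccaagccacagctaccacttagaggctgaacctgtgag
Fhit: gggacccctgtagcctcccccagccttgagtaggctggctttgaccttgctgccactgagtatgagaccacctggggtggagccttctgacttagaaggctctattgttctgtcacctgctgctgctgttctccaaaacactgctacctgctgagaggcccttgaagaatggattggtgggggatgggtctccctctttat
Il17f: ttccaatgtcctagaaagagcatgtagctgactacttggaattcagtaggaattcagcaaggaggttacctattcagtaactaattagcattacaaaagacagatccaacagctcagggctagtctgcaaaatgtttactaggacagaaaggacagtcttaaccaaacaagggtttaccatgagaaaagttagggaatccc
Lrfn5: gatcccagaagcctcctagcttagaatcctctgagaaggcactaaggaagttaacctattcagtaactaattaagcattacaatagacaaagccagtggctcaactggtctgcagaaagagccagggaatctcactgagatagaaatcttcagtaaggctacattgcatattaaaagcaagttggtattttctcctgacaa

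The last set shows regions of single-copy or nearly single-copy sequence. The Ttc29 window (chr8:78148198-78148398), called only in WT, held a pair of SOX motifs and a TCF/LEF motif. The Fgf8 window (chr19:45722983-45723183) and the Hoxa3 window (chr6:52172772-52172972), both called only in WT, each held a CDX motif. The Wnt3a window (chr11:59243966-59244166), weaker in T/BraKO, held none of the 5 motifs. The Ets1 window (chr9:32685812-32686012), stronger in T/BraKO, held a SOX motif.
Ttc29: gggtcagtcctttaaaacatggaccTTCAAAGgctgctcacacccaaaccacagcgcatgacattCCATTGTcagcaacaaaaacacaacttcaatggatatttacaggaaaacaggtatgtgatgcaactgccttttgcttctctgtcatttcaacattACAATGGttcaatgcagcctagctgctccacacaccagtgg
Fgf8: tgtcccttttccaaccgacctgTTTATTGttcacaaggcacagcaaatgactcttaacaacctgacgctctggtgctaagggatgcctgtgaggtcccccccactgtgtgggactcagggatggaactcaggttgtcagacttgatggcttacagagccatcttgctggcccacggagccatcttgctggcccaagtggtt
Hoxa3: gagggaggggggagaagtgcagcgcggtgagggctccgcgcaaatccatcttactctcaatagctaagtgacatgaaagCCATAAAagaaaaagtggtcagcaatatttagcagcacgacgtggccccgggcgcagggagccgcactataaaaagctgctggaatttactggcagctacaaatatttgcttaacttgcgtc
Wnt3a: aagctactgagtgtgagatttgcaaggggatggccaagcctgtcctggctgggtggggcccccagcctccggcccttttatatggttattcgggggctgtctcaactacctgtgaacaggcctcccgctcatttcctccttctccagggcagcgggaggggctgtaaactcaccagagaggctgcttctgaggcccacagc
Ets1: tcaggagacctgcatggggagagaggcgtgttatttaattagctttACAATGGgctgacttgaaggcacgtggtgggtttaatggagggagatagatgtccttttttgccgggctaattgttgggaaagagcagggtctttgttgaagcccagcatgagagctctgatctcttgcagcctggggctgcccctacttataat

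The peak lists differed widely in length between replicates of a genotype. The WT lists held 1008922, 289925 and 205833 peaks, and the T/BraKO lists 266820, 104221 and 26940 peaks. T/BraKO replicate 1 thus had more peaks than WT replicate 3, and the groups overlapped. The mean log10 peak number was 5.59 ± 0.36 (SD, n = 3) in WT and 4.96 ± 0.50 (SD, n = 3) in T/BraKO, and the difference did not pass a two-sided exact permutation test (p = 0.2, with 0.1 the smallest p that 3 against 3 libraries allow). The lists hold no read totals, so their depth is unknown. To compare lists of like length, the 20000 best peaks by −log10 q were taken from each. The weakest of these had a −log10 q of 14.1, 7.28 and 8.20 in WT and of 7.67, 6.87 and 3.26 in T/BraKO. Replicate 3 of T/BraKO therefore gave 74.2% of its list and WT replicate 1 gave 1.98%.

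**Figure D1:**
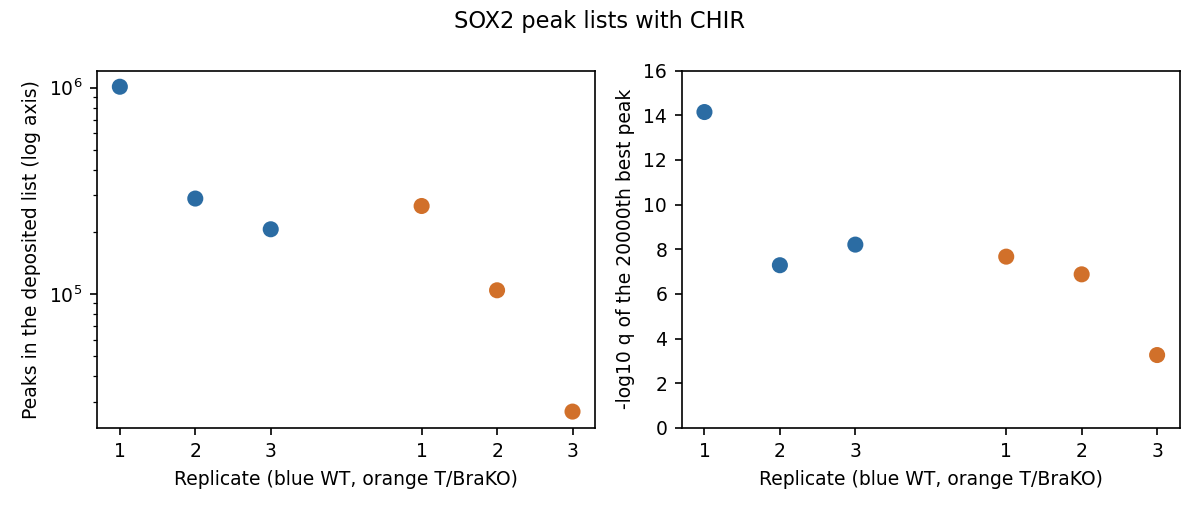
Number of peaks in each deposited SOX2 list (left, log axis) and −log10 q of the 20000th best peak (right), with 1 point for each library. WT replicate 1 stands above the others in both panels, and T/BraKO replicate 3, with 26940 peaks and a −log10 q of 3.26, stands below them.

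Merging the 20000 best peaks of these 6 and of the 6 further SOX2 libraries gave 82807 regions with a peak in at least 1 of the 6 libraries. Most were found once: 39443 in 1 WT library alone and 28265 in 1 T/BraKO library alone. A total of 1693 regions were called in all 6 libraries. Only 37 regions, or 0.0447%, were called in 3 of 3 WT and 0 of 3 T/BraKO libraries, against 595, or 0.719%, in 0 of 3 WT and 3 of 3 T/BraKO libraries. The Jaccard index, the share of regions called in either of a pair of libraries that were called in both, averaged 0.0886 within WT, 0.218 within T/BraKO and 0.136 between the genotypes. On average the WT libraries were therefore less like each other than like the T/BraKO libraries. The order of the counts turned with the length of the lists: in the full lists 2789 regions were called only in WT and 299 only in T/BraKO, and at a −log10 q of at least 5 the counts were 447 and 204. Leaving out WT replicate 1, 2 or 3 raised the WT-only count to 267, 295 or 147, and leaving out T/BraKO replicate 2 or 3 raised it to 68 or 63. The T/BraKO-only count rose to 1584 without WT replicate 3, and to 1761, 1199 or 1175 without T/BraKO replicate 1, 2 or 3.

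**Figure D2:**
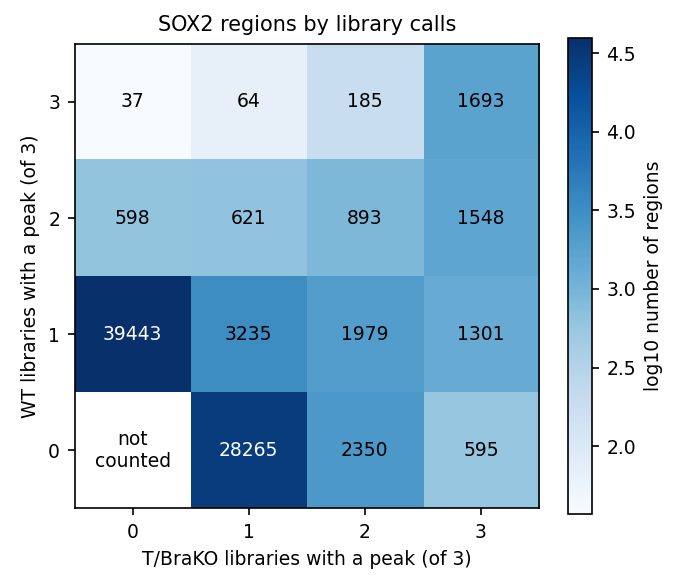
Number of SOX2 regions by the number of WT libraries (vertical) and T/BraKO libraries (horizontal) with a peak among their 20000 best, shaded by log10 number. The counts gather in the 2 cells for a single library (39443 and 28265), and the corner for WT only (37) is lower than that for T/BraKO only (595).

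Of the 37 WT-only regions, 16 lay between genes, 11 in introns and 10 at promoters, within 1000 bp of a transcription start site. The promoter share was 27.0%, against 14.0% of all 82807 regions, of which 41.2% lay in introns and 41.3% between genes. Their 36 nearest genes, of which those listed here were picked after their values were seen, included Sox13, a SOX family member, Fgf8, a growth factor of the primitive streak, Hoxa3, Lmo2, Ephb4, Bcor and Smarcc2, a chromatin remodeller subunit. The Olfr893 region (chr9:38202305-38202790) had fold enrichments of 15.3, 13.8 and 13.04 in the WT libraries and no peak in any full T/BraKO list. It was 1 of 11 of the 37 regions that were absent from the T/BraKO lists at any rank. In contrast, 4 of the 37 had a weaker peak in all 3 full T/BraKO lists, and another 22 in 1 or 2 of them. The Gpr37l1 region had 14.2, 13.3 and 21.3 in WT and 5.68 in T/BraKO replicate 2. The Ttc29 region had 14.1, 11.1 and 13.8 in WT and 4.45 in T/BraKO replicate 3. Just outside the threshold, a region in an intron of Myo1d ranked 20011 in T/BraKO replicate 1, and just inside it a region upstream of Tom1l1 ranked 19959 in WT replicate 2 and 20280 in T/BraKO replicate 2.

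The regions near Fgf8 and Hoxa3 were weaker than the best ranked. The Fgf8 region (chr19:45722946-45723190) lay 13715 bp downstream of the gene, and was named after its values were seen because it is farther than the 10000 bp used for gene lists. Its fold enrichments were 13.8, 8.41 and 8.27 in WT, and no peak was listed there in any T/BraKO, nor among the 20000 best of any CdxKO or noCHIR library. The Hoxa3 region (chr6:52172751-52173031) was at a promoter within the annotated Hoxa3 gene and near Hoxa2. It had fold enrichments of 12, 6.91 and 8.52 in WT and 6.40 in T/BraKO replicate 1, where it ranked 24306, and was likewise absent from the 20000 best of the CdxKO and noCHIR libraries. A pair of WT-only regions lay in introns of Snx29 (chr16:11470025-11470309 and chr16:11490486-11491152). The first had fold enrichments of 13.5, 7.44 and 30.1, the second 10.9, 14.3 and 12.1, and neither had a T/BraKO peak. The other best-ranked WT-only regions lay near Ctif, Ces2g, Tmem39b, Crot and Prss16, with fold enrichments of 7.88 to 20.0 in WT.

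The 595 T/BraKO-only regions were spread over 567 nearest genes. Of them, 270 lay between genes, 206 in introns, 111 at promoters, or 18.7%, and 8 in exons. The 10 best by mean rank were nearest to Olfr1339, Etaa1, Il17f, 3100002H09Rik, Trp53bp1, Pdgfa, Galnt10, Fancl, Immp2l and Csmd1. Pdgfa encodes a platelet-derived growth factor, and its promoter region (chr5:138995976-138997263) had fold enrichments of 17.2, 18.6 and 6.28 in T/BraKO and 6.06, 5.76 and 4.78 in the full WT lists. The Trp53bp1 promoter region (chr2:121270358-121270973) had 23.7, 15.1 and 8.50 in T/BraKO and 8.52, 5.84 and 4.65 in WT. Both were thus present in WT at lower rank. The same held widely: 185 of the 595 regions had a peak in all 3 full WT lists, and 45 had none.

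Of the genes of 9 lists of streak, mesoderm, caudal, Hox, WNT, pluripotency, neural and T-box genes, few had a genotype-specific region within 10000 bp. In WT, Hoxa2 and Hoxa3 shared the 1 region described above, and no gene of the other lists had one. Over all 21938 protein-coding genes, 0.137% had a WT-only and 2.06% a T/BraKO-only region within this distance. The distance is counted from the whole gene, so a longer gene offers more sequence, which was not taken into account. Of the genes named next, Tcf7l1 (chr6:72626378-72789254), Znrf3 (chr11:5276324-5444847), Lef1 (chr3:131110471-131224356) and Rnf43 (chr11:87662722-87735539) are long. The Lef1 and Rnf43 regions lie inside the gene, and the Tcf7l1 and Znrf3 regions outside it. In T/BraKO, 4 of the 14 WNT feedback genes had one: Lef1 and Tcf7l1, which encode DNA-binding partners of β-catenin, and Rnf43 and Znrf3, which encode ubiquitin ligases that remove WNT receptors. The intronic Lef1 region (chr3:131143998-131144652) had fold enrichments of 7.38, 8.52 and 6.47 in T/BraKO and 5.84 in WT replicate 2. The intronic Rnf43 region (chr11:87707844-87708413) had 6.97, 4.82 and 5.26 in T/BraKO and 4.604 in WT replicate 3. The Znrf3 region (chr11:5271461-5271931) had 10.3, 10.1 and 4.33 in T/BraKO, against 5.78 and 4.505 in WT replicates 1 and 3. The Tcf7l1 region (chr6:72794377-72795535) had 7.38, 7.35 and 7.14 in T/BraKO, against 9.21 and 6.32 in WT replicates 1 and 3. The value in WT replicate 1 was the highest of the 5, but it ranked 29415 in that longer list. Further regions lay in an intron of Tfcp2l1, a naive pluripotency factor, with 13.8, 9.75 and 11.4 in T/BraKO and 5.94, 5.51 and 4.62 in WT, and at the promoter of Hes5, a NOTCH target of neural progenitors, with 10.3, 6.62 and 5.46 against 6.61, 3.89 and 5.92. For Tfcp2l1 the libraries of the genotypes did not overlap, which the choice of the region by calls in these same libraries favours, and for Hes5 they did. The adjusted p by limma was 0.791 for the Tfcp2l1 region and 0.964 for the Hes5 region. No gene of the streak, paraxial mesoderm, caudal epiblast, Hox, core and epiblast pluripotency or T-box lists had a T/BraKO-only region. At the share of 2.06% over all genes, lists of 10 to 39 genes can hold none.

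Both sets were partly present in the other SOX2 libraries. Calls in these libraries did not choose the regions, but their peaks helped to set the region borders. Merging over the 6 libraries alone gave 36 WT-only and 600 T/BraKO-only regions. Of the WT-only regions, 56.8%, 43.2% and 43.2% had a peak among the 20000 best of the CdxKO libraries, and 32.4%, 35.1% and 27.0% of the noCHIR libraries. Of the T/BraKO-only regions, 60.3%, 66.2% and 53.4% had one in CdxKO and 65.5%, 63.7% and 57.3% in noCHIR. For the 1693 regions called in all 6 libraries the share was 89.8% to 96.9%. The noCHIR libraries are WT, and more than 50% of the T/BraKO-only regions were among their 20000 best peaks. Of the WT-only regions, 7 were among the 20000 best of none of these 6 further libraries, near Sox13, Fgf8, Rab8b, Tdrd3, Slc35b4, Hoxa3 and Lmo2. The same shares were not counted over all SOX2 regions. The regions called in all 6 libraries were chosen for being called throughout, so they give no such background. Whether either set was found in the further libraries more or less often than SOX2 regions in general was therefore not tested.

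At the motif level the WT-only regions held a SOX motif in 10 of 37 windows of 201 bp, or 27.0% (95% Wilson interval 15.4 to 43.0%), and the T/BraKO-only regions in 27.9% (24.5 to 31.6%). Regions called in all 6 libraries held it in 36.2% (34.0 to 38.5%) and all 82807 regions in 15.9%. The T-box motif was in 0 of 37 WT-only windows (0 to 9.41%), in 7 of 595 T/BraKO-only windows (1.18%, 0.571 to 2.41%) and in 0.954% of all regions. The CDX motif was in 27.0% of WT-only windows (15.4 to 43.0%), 10.9% of T/BraKO-only windows (8.66 to 13.7%) and 15.4% of all regions. The WT-only share thus lay above the others, and the lower bound of its interval was close to the share of all regions. The TCF/LEF motif was in 13.5% and 10.3% of the sets and in 10.8% of all regions, and the POU motif in 2.70% and 4.54%, against 2.69%. A match describes letters, not a bound site. The intervals cover counting error only.

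Sequence that occurs elsewhere in the genome was counted in words of 25 bases. In 7 of the 37 WT-only windows, or 18.9% (95% Wilson interval 9.48 to 34.2%), more than 50% of the words were present at another place. The share was 9.58% (7.47 to 12.2%) in T/BraKO-only windows and 5.26% (4.29 to 6.43%) in windows of regions called in all 6 libraries. The intervals of the WT-only and T/BraKO-only shares overlapped. The share was not counted over all SOX2 regions, so whether either set held more repeated sequence than SOX2 regions in general was not tested. The 7 regions lay near Olfr893, Crot, Snx29, Farp1, Antxr2, Il33 and Fbxw17, and the most frequent word of the Antxr2 window was found at 193 places. The part of such sequence in the differences between the genotypes was not tested.

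**Figure D3:**
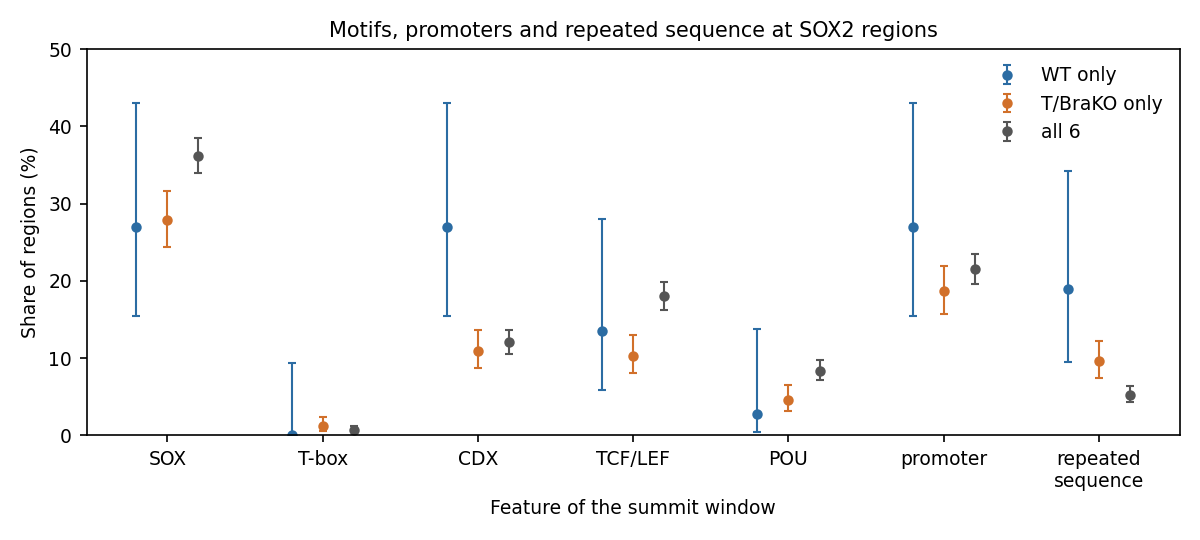
Share of regions with each motif, at a promoter, or with more than 50% of their 25-base words at another place in the genome (repeated sequence), for regions called in WT only (n = 37), in T/BraKO only (n = 595) and in all 6 libraries (n = 1693). Points are percentages and bars 95% Wilson intervals. The WT-only regions have the highest CDX (27.0%) and repeated-sequence (18.9%) shares and the widest intervals.

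The β-catenin and LEF1 libraries gave a readout of the same genotypes that had not been used to choose the regions. They came from the same cell lines as the SOX2 libraries, and the input behind each list is not given. Whether a feature of a line or of an input recurs across the factors was not tested. At the 37 WT-only SOX2 regions, a β-catenin peak was among the 20000 best of 64.9%, 48.6% and 56.8% of regions in the WT libraries and 21.6%, 29.7% and 35.1% in the T/BraKO libraries. The groups did not overlap, with means of 56.8% ± 8.1 (SD, n = 3) and 28.8% ± 6.8 (SD, n = 3) and the smallest p that the two-sided exact permutation test allows (p = 0.1, adjusted p = 0.133 over 4 tests). At the 595 T/BraKO-only regions the order was the opposite: 30.9%, 22.5% and 19.5% in WT and 41.5%, 38.3% and 33.6% in T/BraKO, again without overlap (means 24.3% ± 5.92 and 37.8% ± 3.97, SD, n = 3, exact p = 0.1, adjusted p = 0.133). LEF1 was at 21.6%, 16.2% and 27.0% of the WT-only regions in WT and at 2.70%, 8.11% and 8.11% in T/BraKO, which did not overlap (exact p = 0.1, adjusted p = 0.133). At the T/BraKO-only regions LEF1 was at 4.54% ± 1.82 of regions in WT and 5.43% ± 0.70 in T/BraKO (SD, n = 3), and the exact test gave p = 0.5. Over all 82807 regions β-catenin was at 8.85% in WT and 10.8% in T/BraKO, and LEF1 at 2.59% and 2.52%, as means of 3 libraries. The β-catenin share was thus higher in WT at the WT-only regions and lower at the T/BraKO-only regions, and the LEF1 share higher in WT at the WT-only regions, without passing the threshold of 0.05. With the full β-catenin lists the groups overlapped, with WT minus T/BraKO differences of 20.7 (exact p = 0.2) and −9.69 percentage points (exact p = 0.3). For LEF1 at the WT-only regions they also overlapped, with differences of 17.1 in the full lists and 9.01 among the 5000 best (exact p = 0.2 for each). At the regions called in all 6 SOX2 libraries, β-catenin was at 62.4 to 75.7% in WT and 71.0 to 77.7% in T/BraKO. Without the regions of repeated sequence, which was tried after the data were seen, the WT-only shares were 52.2% ± 11.7 and 24.4% ± 3.85 for β-catenin (SD, n = 3), so that the difference was nearly as large.

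By region, 8 of the 37 WT-only regions had a β-catenin peak in 3 of 3 WT and 0 of 3 T/BraKO libraries. Among them were regions near Olfr893, Ttc29, Ces2g, Sox13, Fgf8, Snx29 and Rab8b. None of the 37 showed the reverse. Over all 82807 regions 0.209% had β-catenin in 3 of 3 WT and 0 of 3 T/BraKO libraries, and of the 1693 regions called in all 6 libraries 0.236%. Of the T/BraKO-only regions, 10 of 595 had β-catenin in 0 of 3 WT and 3 of 3 T/BraKO libraries, among them intronic regions of Etv5, an FGF target (chr16:22402562-22403297), and Pax3, a dorsal neural factor (chr1:78146830-78147285), and regions near Fstl4, Nxph1 and Runx1t1. That pattern was found in 0.391% of all 82807 regions and in 0.886% of the 1693. The Etv5 region had SOX2 fold enrichments of 7.495, 7.10 and 4.87 in T/BraKO and 4.33, 3.57 and 5.63 in the full WT lists, which overlapped. The Pax3 region had 7.89, 6.18 and 6.08 in T/BraKO and 4.36 in WT replicate 1. None of the 595 showed the reverse. These genes were named after their values were seen.

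**Figure D4:**
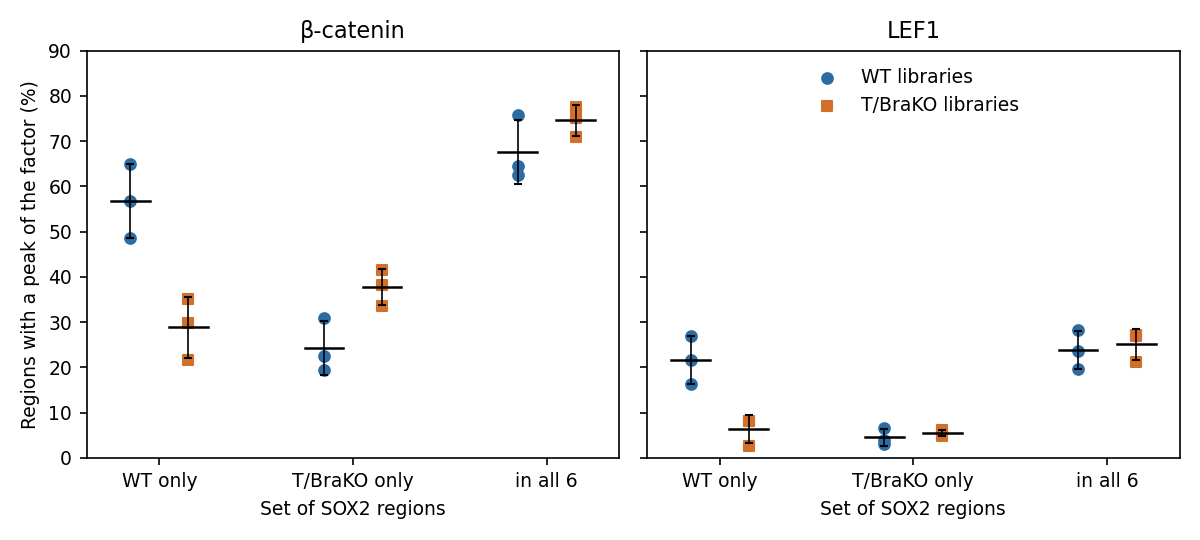
Percentage of SOX2 regions that overlap one of the 20000 best peaks of β-catenin (left) or LEF1 (right), with 1 point for each library, a line at the mean and bars of 1 SD (n = 3). At WT-only regions the WT libraries of both factors lie above all T/BraKO libraries, at T/BraKO-only regions the β-catenin libraries lie in the opposite order, and at regions called in all 6 the groups overlap.

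The fold enrichment of SOX2 could be tested at 5816 of the regions merged from the 20000 best peaks of the 12 SOX2 libraries, those with a peak in all 6 full lists. With limma on log2 fold enrichment and Benjamini-Hochberg adjustment over all of them, 1 region, or 0.0172%, was lower in T/BraKO and 0, or 0.0%, were higher. At an unadjusted p under 0.05, 167 were lower and 178 higher. Without centring each library on its median, these counts were 60 and 274. The called region (chr18:68753199-68753875) lay between genes, 324252 bp upstream of Mc2r, a melanocortin receptor gene. Its fold enrichments were 17.2, 29.7 and 59.6 in WT and 3.94, 5.20 and 11.5 in T/BraKO. All WT libraries were above all T/BraKO libraries, which the choice of the region by these values favours. Each group spanned a wide range. The difference was −2.50 ± 0.47 (SE) on the log2 scale (adjusted p = 0.0103 by limma). It did not pass without WT replicate 2 or 3 or T/BraKO replicate 1 or 2, where the adjusted p was 0.235, 0.18, 0.245 and 0.141. In the other SOX2 libraries the Mc2r region had 35.7, 23.9 and 75.9 in CdxKO, and 10.6 and 4.51 in 2 noCHIR libraries. It had a β-catenin peak in 3 of 3 WT and 0 of 3 T/BraKO libraries and a LEF1 peak in 1 and 0.

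The other regions with the smallest p values did not pass the adjustment. They were picked by these same values, so groups without overlap follow largely from the choice and are no further evidence. The Gtf2ird1 region (chr5:134336567-134337571) had fold enrichments of 14.2, 30.1 and 38.3 in WT and 6.68, 7.09 and 7.38 in T/BraKO. Its difference was −2.01 ± 0.45 (SE) on the log2 scale with an adjusted p of 0.103 by limma, and 0.00455 to 0.603 over the alternatives. The region 3967 bp downstream of Wnt3a, a WNT ligand gene of the primitive streak (chr11:59243694-59244475), had 9.63, 8.21 and 17.0 in WT and 7.56, 3.77 and 2.52 in T/BraKO. The groups did not overlap, and the adjusted p by limma was 0.46. In CdxKO the Wnt3a region had 11.5, 6.34 and 14.0, and no noCHIR library listed a peak there. The regions near Lrfn5 and Dnajb6 also had WT libraries all above the T/BraKO libraries, with 12.97 to 18.5 in WT and 3.33 to 7.83 in T/BraKO. Of the 5 lower regions, those near Gtf2ird1, Lrfn5 and Dnajb6 were of repeated sequence, with 59.3%, 68.9% and 61.6% of their 25-base words at another place, and those near Mc2r and Wnt3a held none.

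In the other direction, a region 180971 bp upstream of Zmiz1 (chr14:25278014-25278396), in an intron of another annotated gene, had 2.89, 3.35 and 11.5 in WT and 25.6, 16.6 and 20.6 in T/BraKO. The difference was 1.94 ± 0.46 (SE) on the log2 scale (adjusted p = 0.171 by limma, and 0.0293 without WT replicate 3). The intronic region of Ets1, an ETS transcription factor gene (chr9:32685335-32686424), had 12.5, 7.11 and 13.6 in WT and 38.9, 33.2 and 30.4 in T/BraKO, with an adjusted p of 0.46 by limma. The regions near Fhit, Gm6657 and Lrrn4 ranged from 3.58 to 16.9 in WT and from 15.9 to 44.0 in T/BraKO. In each the libraries of the genotypes did not overlap, as the choice by the smallest p favours. In the other SOX2 libraries the Ets1 region had 37.9, 35.9 and 19.4 in CdxKO and 22.2, 48.0 and 11.3 in noCHIR. The Zmiz1 region had a peak of 7.28 and 5.46 in 2 CdxKO libraries and of 3.87 in 1 noCHIR library.

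**Figure D5:**
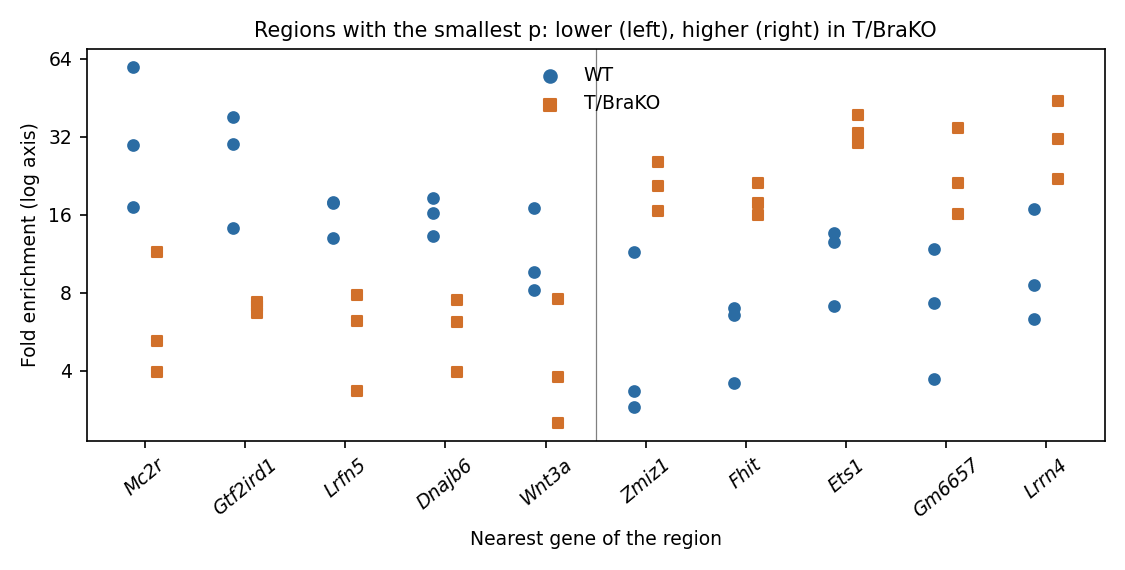
SOX2 fold enrichment (log axis) in each library at the regions with the smallest limma p, lower in T/BraKO on the left and higher on the right, with 1 point for each of the 3 WT (blue) and 3 T/BraKO (orange) libraries. The 10 regions were picked by p from these same values, so the lack of overlap between the genotypes follows largely from the choice. Only the Mc2r region passed the adjustment over 5816 regions.

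Over the tested regions, the medians of fold enrichment by motif or place lay near 0 on the log2 scale. The median log2 difference, T/BraKO minus WT, was −0.01 over all 5816 regions, 0.02 over 1871 with a SOX motif, 0.04 over 43 with a T-box motif, −0.04 over 720 with a CDX motif, −0.01 over 951 with a TCF/LEF motif and 0.05 over 388 with a POU motif. It was −0.08 over 1355 promoter regions, of which 30 were higher and 52 lower at an unadjusted p under 0.05 by limma. It was 0.04 over 2278 regions between genes, of which 82 were higher and 58 lower. The 352 regions of repeated sequence had a median of 0.01. None of the regions near the genes of the 9 lists passed the adjustment. Their medians ranged from −0.31 over 13 regions near neural genes to 0.18 over 9 near naive pluripotency genes. The largest difference among the neural genes, also named after its value was seen, was at Nes, an intermediate filament gene of neural progenitors, with fold enrichments of 55.9, 46.1 and 27.2 in WT and 19.2, 27.8 and 27.2 in T/BraKO, which overlapped.

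Over whole lists, the 20000 best summits held a SOX motif in 15.3%, 14.9% and 21.02% of windows in WT and in 20.1%, 25.4% and 24.1% in T/BraKO. WT replicate 3 was within the T/BraKO range, and the difference of means, −6.10 percentage points, did not pass (exact p = 0.2, adjusted p = 0.375 over 5 motifs). The POU motif showed the same order, 2.59%, 2.93% and 3.83% against 3.62%, 4.22% and 4.80% (exact p = 0.2). The T-box motif, the motif of the family of T/Bra, was in 0.825%, 1.08% and 1.07% of windows in WT and in 0.945%, 0.81% and 1.02% in T/BraKO, and the ranges overlapped (exact p = 0.5). The CDX and TCF/LEF shares also overlapped (exact p = 0.3 for each). Exons held 3.55%, 3.66% and 3.02% of summits in WT and 2.92%, 2.87% and 2.83% in T/BraKO, without overlap but without passing (exact p = 0.1, adjusted p = 0.4 over 4 places). Promoters held 11.8 to 19.1% in WT and 16.1 to 20.7% in T/BraKO, which overlapped.

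Peaks near genes that respond to WNT, near epiblast pluripotency genes and near neural genes were more numerous among the 20000 best of every T/BraKO library than of any WT library. Within 10000 bp of the 14 WNT feedback genes there were 32, 36 and 38 peaks in WT and 44, 53 and 54 in T/BraKO. Near the 11 core and epiblast pluripotency genes there were 21, 22 and 27 against 32, 34 and 37, and near the 19 neural genes 29, 27 and 31 against 36, 34 and 42. Each of these reached the smallest p possible, 0.1, in the exact permutation test, with an adjusted p of 0.3 over 9 lists. The T/BraKO mean was higher for each of the 9 lists, with WT minus T/BraKO differences of −2.33 to −15 peaks. Near all protein-coding genes there were 12413, 12206 and 13210 of the 20000 best peaks in WT and 12625, 13235 and 12945 in T/BraKO, which overlapped (exact p = 0.4). With the 5000 best peaks the difference for the WNT and the core pluripotency genes had an exact p of 0.4. With 0 bp around the gene the exact p was 0.3 for the core pluripotency and the neural genes, and with 50000 bp it was 0.3 for the neural genes. The order depended on the fixed list length, since in the full lists the WT means were higher for all 9 lists. For the neural genes the WT mean was also higher, by 4.0 peaks, among the 5000 best. For the streak, paraxial mesoderm, caudal epiblast, Hox, naive pluripotency and T-box lists the libraries of the genotypes overlapped (exact p = 0.3 to 0.8). Near the 15 streak genes the libraries had 25, 25 and 39 peaks in WT and 26, 34 and 37 in T/BraKO. Near the 39 Hox genes they had 42, 50 and 86 against 58, 70 and 82.

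By gene, 314 of 21938 protein-coding genes, or 1.43%, had more peaks in every T/BraKO than in every WT library, and 261, or 1.19%, had fewer. Among the 9 lists, 3 genes had more peaks in every T/BraKO library: Greb1, of the caudal epiblast list, Dkk1, which encodes a secreted WNT antagonist, and Otx2, a homeobox factor of the epiblast and anterior neural cells. None had fewer. Greb1 had 2, 2 and 3 peaks in WT and 7, 5 and 4 in T/BraKO. Dkk1 and Otx2 were named after their values were seen. Dkk1 had 2, 1 and 2 against 3, 3 and 4, and Otx2 had 2, 2 and 2 against 4, 3 and 4. Sox2 had 2, 4 and 1 peaks in WT and 5, 5 and 4 in T/BraKO, so that the groups met at 4 peaks. Of the other members with the largest differences, Tcf7l1 had 3, 5 and 7 peaks against 7, 7 and 9, Hoxc5 had 4, 4 and 9 against 7, 13 and 9, and Wnt3 had 2, 3 and 3 against 4, 5 and 3. Tfcp2l1 had 2, 0 and 1 against 2, 3 and 3, Pou3f2 had 1, 5 and 2 against 8, 3 and 3, and Pcdh8 had 0, 0 and 3 against 2, 3 and 2. Hes7, an oscillating gene of the presomitic mesoderm, had 4, 3 and 6 peaks against 2, 4 and 3, and Tbx18, a T-box gene, 1, 3 and 3 against 0, 1 and 1. In these 8 genes the libraries of the genotypes overlapped or met.

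SOX2 peaks were listed at T, the mutated gene, in the T/BraKO libraries. Within 10000 bp of T (chr17:8434423-8442496, + strand), the 20000 best held 2, 4 and 2 peaks in WT and 2, 3 and 3 in T/BraKO. The best peak there had a fold enrichment of 28.2, 12.7 and 22.5 in WT and 14.0, 17.3 and 17.0 in T/BraKO, and the groups overlapped. The full lists held 16, 10 and 12 peaks there in WT and 7, 5 and 4 in T/BraKO, which did not overlap, in lists that were also shorter in T/BraKO on average. A peak list shows neither the mutation nor the loss of the protein, so it gives no check of the genotype.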

How the data were processed

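ChIP–seq peak lists of SOX2, β-catenin and LEF1 in mouse cells were used as deposited, and inputs were not analysed here. The authors trimmed and aligned single-end reads to mm10 and called peaks with MACS2 in each library separately, without pooling replicates. The input that served as control for each list is not given in the sources used here. Each deposited list holds a fold enrichment over control (ratio), a −log10 p and a −log10 q, and the summit position; the score column was not used. The depth is unknown, since the deposited lists hold no read counts, so no count test was run.

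Peaks were ranked by −log10 q, then by −log10 p, and the 20000 best of each of the 12 SOX2 lists were merged into regions where they overlapped by at least 1 bp. Sequence and genes came from the RefSeq genome and the GENCODE annotation of the same build. Values per library were compared by two-sided exact permutation tests, and log2 fold enrichment by limma 3.58.1 (R 4.3.3), centred on each library's median, with Benjamini-Hochberg adjustment. The limma step was tested on simulated data. Regions were named by the best mean rank in each set and the smallest limma p in each direction, and genes by list membership and the largest difference in each list. Exceptions are marked in the text. The regions compared and the gene lists were chosen with earlier results of these data known. Alternatives covered the list length, q, merging, windows, distances, scaling and leaving out each library. The values of 1 region called only in WT are not reported here, although it is included in the counts.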

Additional observations from a re-analysis of the deposited data

How the results depend on the processing

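Direction here is WT minus T/BraKO. No exact test could pass 0.05 under any setting, and 0.1 was the smallest p. From an exact p of 0.1, WNT feedback and core pluripotency genes went to 0.4 with the 5000 best peaks, core pluripotency and neural genes to 0.3 with 0 bp, neural genes to 0.3 with 50000 bp and exons to 0.5 with full lists. With full lists the difference in peaks near genes turned from negative to 101 for primitive streak, 113.7 for paraxial mesoderm, 82.3 for caudal epiblast, 134.3 for Hox, 227.7 for WNT feedback, 126.3 for naive pluripotency, 74.0 for core pluripotency, 168.3 for neural and 154.0 for T-box genes, while the WT full lists were longer on average. With the 5000 best peaks it turned to 3.33 for primitive streak, 2.67 for Hox, 4.0 for neural and 0.667 for T-box genes, and the shares turned to 0.28 for promoters and −1.66 for places between genes. With 0 bp around the gene it turned to 0.333 for primitive streak and 0.667 for caudal epiblast genes, and with 50000 bp to 3.0 for T-box genes. The T-box motif difference turned to −0.0115 with full lists and −0.00333 with a window of 50 bp. Leaving out 1 library gave −4.67 to 1.33 for naive pluripotency genes, turning to 0.333 without WT replicate 2 and 1.33 without T/BraKO replicate 3, and −5.0 to 0.0 for T-box genes. Regions called only in T/BraKO numbered 161 with the 5000 best peaks and 352 with the 10000 best. Full lists gave 2789 regions called only in WT and 299 only in T/BraKO, and a −log10 q of at least 5 gave 447 and 204. Leaving out 1 library gave 44 to 295 regions only in WT and 735 to 1761 only in T/BraKO, where fewer libraries had to agree. The Jaccard index within minus between genotypes was 0.0168 and ranged from −0.0162 to 0.0752 without 1 library, at −0.0149, −0.0162 and −0.0155 without T/BraKO replicate 1, 2 and 3. By limma, the regions lower in T/BraKO numbered 2 with array weights and 0 to 2 without 1 library, and those higher numbered 0 to 1. Apart from the fewer libraries, the cause was not tested. The β-catenin and LEF1 differences kept their direction under each alternative, including the set without repeated sequences, which was chosen after seeing the data. Same-numbered WT and T/BraKO libraries showed little shared deviation (r = 0.0133, −0.0311 and 0.0954 over regions). Pairs with unlike numbers had −0.0775 to 0.0676. These values cannot settle whether same-numbered libraries shared an experiment. A fit with the replicate number as a block gave 1 region lower and 0 higher, as without it. A paired exact test of 3 pairs cannot go below p = 0.25. Unknown depth limits the reading of an absent peak: a region missing from a list may be unbound or undetected, which cannot be told apart.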
